A study of Mus musculus with 11 samples.

Results

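Mitochondrial carriers of the Slc25a family were described in 11 RNA-seq libraries of aged mouse muscle. Every row of the deposited CPM table (read counts scaled to a total of 1000000 per library) whose symbol starts with Slc25a was taken, which gave 42 genes of the 18269 in the table. The choice used symbols and no measured value. Carriers of the same family that go by other symbols, such as the uncoupling proteins, were kept apart and are given beside them.

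Most proteins of this family sit in the inner membrane of the mitochondrion, which is otherwise closed to charged metabolites, and a typical member exchanges or lets pass a few small molecules such as nucleotides, phosphate, carboxylic acids, amino acids or cofactors. In skeletal muscle the exchange of ADP for ATP, the uptake of phosphate, the malate-aspartate shuttle that carries reducing power inwards and the entry of acylcarnitines are the best known of these routes. Several carriers of ATP-Mg and of aspartate and glutamate are regulated by calcium.

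The tissue was the tibialis anterior, a shin muscle of mostly fast fibres, of C57BL/6 mice aged 21 to 24 months. Animals were injected with EV-depleted young serum (EVs are extracellular vesicles, membrane particles that cells shed; 3 libraries, numbers 2, 3 and 4), with young serum (4 libraries, numbers 1 to 4) or with saline (4 libraries, numbers 2, 3, 4 and 6). All groups share strain, age and tissue, the labels point to an injury model without saying which muscles were injured, and no allele or transgene is named. The comparisons ask what young serum changes in old muscle and what changes when its EVs are removed. The labels do not say that each library is a separate animal, and the tests therefore describe variation among libraries, part of which may be technical. Each library held about 36.4 to 42.2 times 1000000 reads, an estimate from its smallest CPM steps. In bulk tissue, fewer cells of a type and less RNA per cell cannot be told apart.

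Fast fibre genes (10 of 10 in the table) summed to 138070 to 150299 CPM in EV-depleted libraries, 152093 to 166437 CPM in young serum libraries and 142442 to 174455 CPM in saline libraries, so the defining genes of a fast muscle were present in all of them. A pair of saline libraries stood apart. Saline 4 had 6134 CPM of 8 adipocyte markers, against 248 to 625 CPM in the other 10 libraries, and saline 6 had 5551 CPM of 9 slow fibre markers, against 242 to 2234 CPM. Where the difference of a carrier described below moves with these libraries, its value without them or its range over alternative analyses is mostly given beside it.

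Promoter windows of RefSeq on build GRCm38.p6 (250 bases before to 50 after a start site) were matched by symbol for 32 of the 42 carriers. Windows of 5 carriers are shown because results on them are described further on: Slc25a25 and Slc25a30 in young serum, Slc25a13 and Slc25a34 in EV-depleted serum, and Slc25a1 in 1 saline library. Capitals mark, on either strand, the cAMP response element TGACGTCA, the E-box CACGTG, the half-site of estrogen-related receptors AAGGTCA and the core of the NRF1 site GCGCATGC; none of these overlaps another in the windows shown. The windows lie at chr2:32424017-32424316 (minus strand, 1 of 3 starts of Slc25a25), chr14:75786988-75787287 (minus), chr6:6217124-6217423 (minus), chr4:141623785-141624084 (minus) and chr16:17928170-17928469 (minus), and are written in the direction of transcription.
Slc25a25: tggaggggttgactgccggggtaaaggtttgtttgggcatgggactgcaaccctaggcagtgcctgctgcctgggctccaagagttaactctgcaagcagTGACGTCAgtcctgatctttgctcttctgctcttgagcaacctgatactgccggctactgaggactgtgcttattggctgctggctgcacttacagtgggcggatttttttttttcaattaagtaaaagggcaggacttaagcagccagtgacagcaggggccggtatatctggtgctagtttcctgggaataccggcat
Slc25a30: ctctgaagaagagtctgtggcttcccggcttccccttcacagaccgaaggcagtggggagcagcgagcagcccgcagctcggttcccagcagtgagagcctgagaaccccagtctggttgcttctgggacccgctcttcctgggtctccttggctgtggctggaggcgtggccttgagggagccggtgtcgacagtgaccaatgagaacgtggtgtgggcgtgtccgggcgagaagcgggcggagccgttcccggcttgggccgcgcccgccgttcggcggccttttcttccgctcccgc
Slc25a13: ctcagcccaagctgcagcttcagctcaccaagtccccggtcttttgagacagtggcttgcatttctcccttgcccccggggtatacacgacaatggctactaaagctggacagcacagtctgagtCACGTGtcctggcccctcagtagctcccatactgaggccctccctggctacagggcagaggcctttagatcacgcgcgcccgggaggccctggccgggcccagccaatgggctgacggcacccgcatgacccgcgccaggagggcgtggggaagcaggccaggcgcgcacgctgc
Slc25a34: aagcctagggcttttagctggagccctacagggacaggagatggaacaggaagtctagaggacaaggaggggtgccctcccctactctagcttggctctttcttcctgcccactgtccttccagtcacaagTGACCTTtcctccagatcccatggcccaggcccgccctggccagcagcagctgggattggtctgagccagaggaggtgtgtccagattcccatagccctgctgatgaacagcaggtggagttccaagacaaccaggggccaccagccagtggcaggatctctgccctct
Slc25a1: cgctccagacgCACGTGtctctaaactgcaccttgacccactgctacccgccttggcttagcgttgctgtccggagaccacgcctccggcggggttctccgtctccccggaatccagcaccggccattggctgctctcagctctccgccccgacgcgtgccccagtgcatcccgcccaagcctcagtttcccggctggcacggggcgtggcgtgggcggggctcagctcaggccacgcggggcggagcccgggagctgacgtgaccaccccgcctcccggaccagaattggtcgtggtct
The cAMP response element starts 150 bases before this start of Slc25a25 and is in neither of its other windows. It was found in 2 of the 41 windows of the carriers (4.88%; the other one belongs to Slc25a36) and in 1.79% of all 32851 windows. The E-box was in 8 of 41 carrier windows (19.5%), among them Slc25a13 at 125 and Slc25a1 at 239 bases before the start, against 7.15% of all windows. These windows belong to 7 of the 32 carriers, because overlapping windows of Slc25a14 hold the same E-box. The estrogen-related receptor half-site was in 1 carrier window (2.44%), that of Slc25a34, against 4.72% of all. The NRF1 core was in 1 (2.44%), that of Slc25a31, against 2.71% of all. The window of Slc25a30 holds none of these letters. Matches are given as a description of the letters in the window.

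Slc25a4, the ADP/ATP carrier of muscle and heart (chromosome 8, 46206797 to 46211284, build mm10), made up most of the family's transcripts. It stood at 3679.6, 4185 and 3384 CPM in EV-depleted libraries, 3046, 3179, 3339.8 and 2863 CPM in young serum libraries and 3573, 3430.2, 3224 and 4305 CPM in saline libraries. All 42 carriers together summed to 5989 ± 495 CPM in EV-depleted libraries (SD, n = 3), 5146 ± 352 CPM in young serum libraries (SD, n = 4) and 5815 ± 509 CPM in saline libraries (SD, n = 4). The sums ran from 5489.6 to 6479 CPM in EV-depleted, 4799.8 to 5477 CPM in young serum and 5404 to 6558 CPM in saline libraries, so the EV-depleted and young serum libraries just miss each other and saline overlaps both. Of this sum, Slc25a4 took 62.5% ± 1.82 in EV-depleted, 60.4% ± 1.60 in young serum and 62.4% ± 3.55 in saline libraries. With Slc25a3 and Slc25a12 the share was 83.1% ± 1.30 in EV-depleted, 81.4% ± 0.535 in young serum and 82.1% ± 3.66 in saline libraries. The shares overlap between all groups, with Slc25a4 at 61.3% to 64.6% in EV-depleted, 58.6% to 62.3% in young serum and 57.3% to 65.6% in saline libraries; they were not tested.

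Levels are compared between carriers as CPM per kilobase of exon, using the union of GENCODE M21 exons. By the median of the 11 libraries, Slc25a4 was first at 1438, followed by the phosphate carrier Slc25a3 at 129, the oxoglutarate-malate carrier Slc25a11 at 110.4 and the aspartate-glutamate carrier Slc25a12 at 56.6 CPM per kb. The ranges of Slc25a3 and Slc25a11 over libraries overlap, but within every library Slc25a3 stood above Slc25a11 on this measure. Their group means were 142 and 123 CPM per kb in EV-depleted, 119 and 98.3 in young serum and 136 and 109 in saline libraries. Slc25a4 and Slc25a12 overlap neither Slc25a3 nor Slc25a11, nor each other. Then came Slc25a5, the ADP/ATP carrier of many non-muscle cells, at 16.6 and Slc25a39, a glutathione carrier, at 16.3 CPM per kb. Slc25a5 has near-identical processed pseudogenes, and its count is uncertain because no source used here says how shared reads were assigned. The carnitine-acylcarnitine carrier Slc25a20 and the NAD carrier Slc25a51 stood at 14.5 CPM per kb each. The least abundant carriers that could be tested were Slc25a13 at 0.207 and Slc25a53 at 0.117 CPM per kb.

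**Figure D1:**
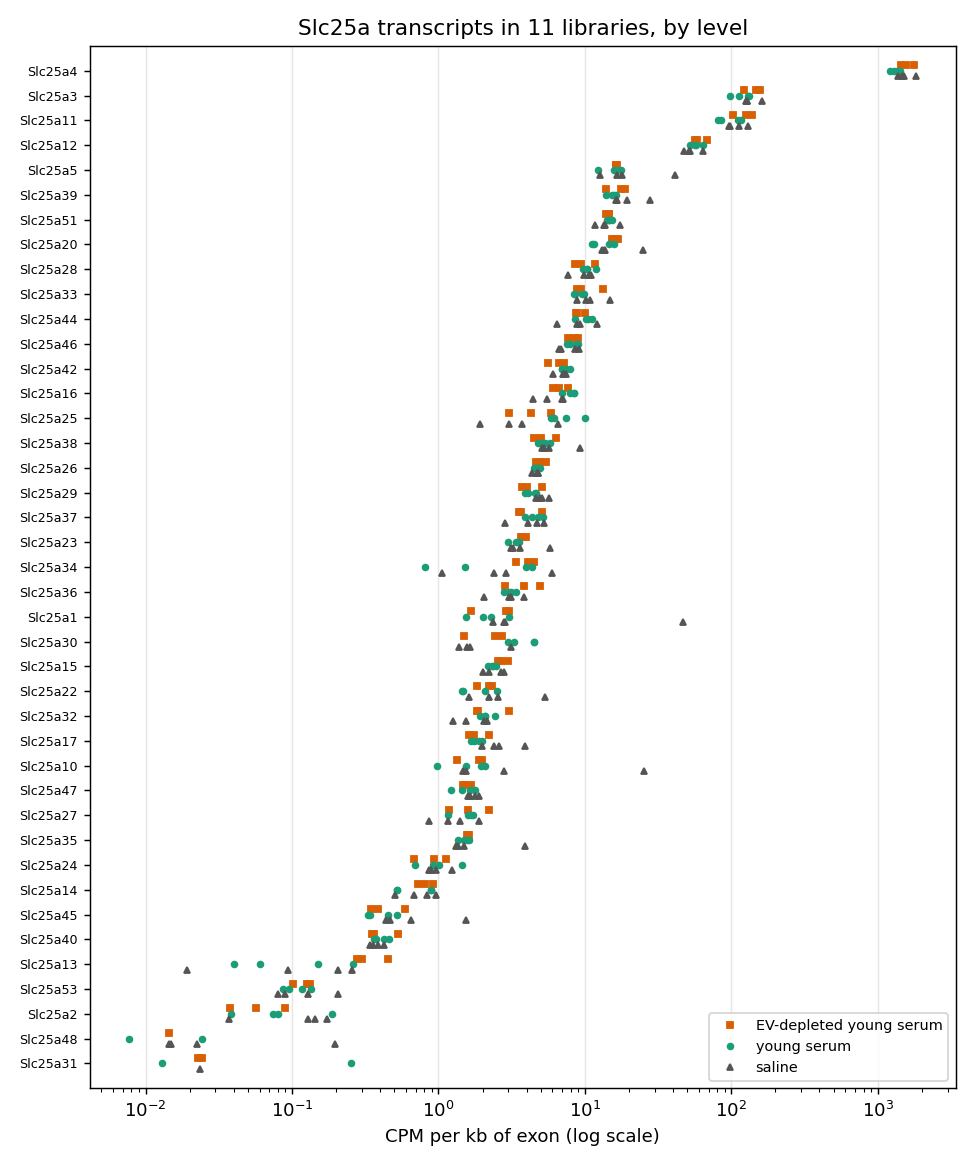
Level of 41 of the 42 carriers in every library, as CPM per kb of exon on a log scale, with carriers ordered by their median; squares are EV-depleted young serum, circles young serum and triangles saline, and values at the table's lowest entry are not drawn. Slc25a4 lies near 1438 CPM per kb, Slc25a3 and Slc25a11 overlap below it, and single triangles of Slc25a1, Slc25a10 and Slc25a5 lie far to the right of their rows.

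Genes that reached 1 CPM in 3 or more libraries were tested, and the 3 carriers below this filter were the ornithine carrier Slc25a2, the testis ADP/ATP carrier Slc25a31 and Slc25a48. Their highest values were 0.256 CPM (young serum 4), 0.535 CPM (young serum 1) and 0.662 CPM (saline 4). Exact two-sided permutation tests of their CPM gave p from 0.143 to 0.971 over 9 comparisons (adjusted 0.803 to 0.971), and with these group sizes the smallest possible p is 0.0286. The other 39 were tested with limma among 13187 genes. Slc25a13 passed the filter only through the EV-depleted libraries (at least 1 CPM in 3 of these and in 0 of the young serum and saline libraries), so it had to differ there, and its values are given as a description.

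No carrier passed the adjusted threshold of 0.05 in any of the comparisons, by limma on log2(CPM + 1) with Benjamini-Hochberg adjustment over 13187 genes. Of all genes, 0.0% passed in each of the 3 comparisons. The values below are therefore given with their errors, and none of them is a called change. With weights estimated per library, an estimate that stopped before it converged, limma called 3 carriers in young serum against saline, 1 in EV-depleted serum against saline and 1 in EV-depleted against young serum, where it also called 26.1%, 13.6% and 0.182% of all genes.

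In young serum against saline, the 2 carriers with the largest positive difference were Slc25a25, a calcium-regulated carrier of ATP-Mg and phosphate, and Slc25a30, a relative of the uncoupling proteins. They stood 2.04-fold and 1.94-fold higher, on the CPM + 1 scale. At an unadjusted p under 0.05, 3 of 39 carriers were higher (Slc25a25, Slc25a30 and Slc25a16; 7.69%) and 1 was lower (Slc25a17; 2.56%), against 10.5% and 11.4% of all genes. In all, 16 carriers were higher and 23 lower, with a median log2 difference of -0.08 against -0.02 over all genes. In 0 carriers were the groups free of overlap, against 6.09% of all genes in the higher and 6.08% in the lower direction.

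Slc25a25 (chromosome 2, 32414487 to 32451445) had 58.6, 79.0, 48.3 and 45.8 CPM in young serum libraries, against 29.1, 15.2, 51.9 and 23.7 CPM in saline libraries. The groups overlap only through saline 4, whose 51.9 CPM exceeds 2 of the young serum libraries. The log2 difference was 1.03 ± 0.32 (SE; 95% interval 0.32 to 1.74), a 2.04-fold higher value on the CPM + 1 scale, with limma adjusted p = 0.18. Without saline 4 the difference was 1.33, and without both saline 4 and saline 6 it was 1.38. In EV-depleted libraries Slc25a25 had 23.9, 45.9 and 33.5 CPM, within the range of the saline libraries only when saline 4 is included. The other saline libraries ran from 15.2 to 29.1 CPM, below 45.9 and 33.5 CPM. Slc25a25 differed by 0.28 ± 0.35 in EV-depleted serum against saline (SE, limma adjusted p = 0.701), and by 0.01 to 0.63 over the alternative analyses. Of its calcium-regulated relatives, Slc25a23 differed by -0.19 ± 0.17 and Slc25a24 by 0.01 ± 0.19 (SE) in young serum against saline. Slc25a23 had 30.8 CPM in saline 4, against 16.5 to 19.1 CPM in the other saline libraries. Over the alternative analyses Slc25a23 ran from -0.28 to 0.01 and Slc25a24 from -0.19 to 0.13, so neither direction is settled.

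Slc25a30 (chromosome 14, 75760117 to 75787037) had 14.9, 20.6, 13.7 and 20.6 CPM in young serum libraries, against 7.49, 6.28, 14.4 and 7.14 CPM in saline libraries. Saline 4 was again the one saline library inside the young serum range. The log2 difference was 0.95 ± 0.26 (SE; 95% interval 0.39 to 1.52; limma adjusted p = 0.18), and 1.19 without saline 4. In EV-depleted libraries Slc25a30 had 6.80, 11.2 and 12.5 CPM, within the saline range only when saline 4 is included. The other saline libraries ran from 6.28 to 7.49 CPM. Slc25a30 differed by 0.21 ± 0.28 in EV-depleted serum against saline (SE, limma adjusted p = 0.714), and by 0.06 to 0.47 over the alternative analyses. Of the other uncoupling-like carriers, Slc25a27 differed by 0.21 ± 0.23 and Slc25a14 by -0.05 ± 0.18 (SE) in young serum against saline. Slc25a27 had 3.39 CPM in saline 6, against 4.55 to 7.44 CPM in the other saline libraries. In the alternative analyses Slc25a27 ran from -0.08 to 0.37 and Slc25a14 from -0.15 to 0.14.

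Slc25a16, a carrier linked to coenzyme A in mitochondria, had 40.2, 37.8, 33.3 and 40.4 CPM in young serum libraries, against 33.7, 26.4, 34.1 and 21.2 CPM in saline libraries. Only 1 young serum library lay inside the saline range. The log2 difference was 0.40 ± 0.15 (SE; limma adjusted p = 0.188), and without saline 6 it was 0.27, with an unadjusted p no longer under 0.05. Slc25a32, the folate and FAD carrier, followed with 14.9, 12.6, 12.6 and 11.7 CPM in young serum libraries, against 12.5, 9.44, 13.1 and 7.63 CPM in saline libraries. These groups overlap, and the log2 difference was 0.28 ± 0.20 (SE; limma adjusted p = 0.385) and 0.15 without saline 6. Slc25a17, a peroxisomal carrier of coenzyme A and related cofactors, had 5.40, 5.69, 4.95 and 4.75 CPM in young serum libraries, against 6.87, 5.69, 11.1 and 7.42 CPM in saline libraries. The highest young serum value equals the lowest saline value to the digits given, and saline 4 is the highest. Its log2 difference was -0.47 ± 0.18 (SE; limma adjusted p = 0.19), and -0.30 without saline 4, with an unadjusted p no longer under 0.05.

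**Figure D2:**
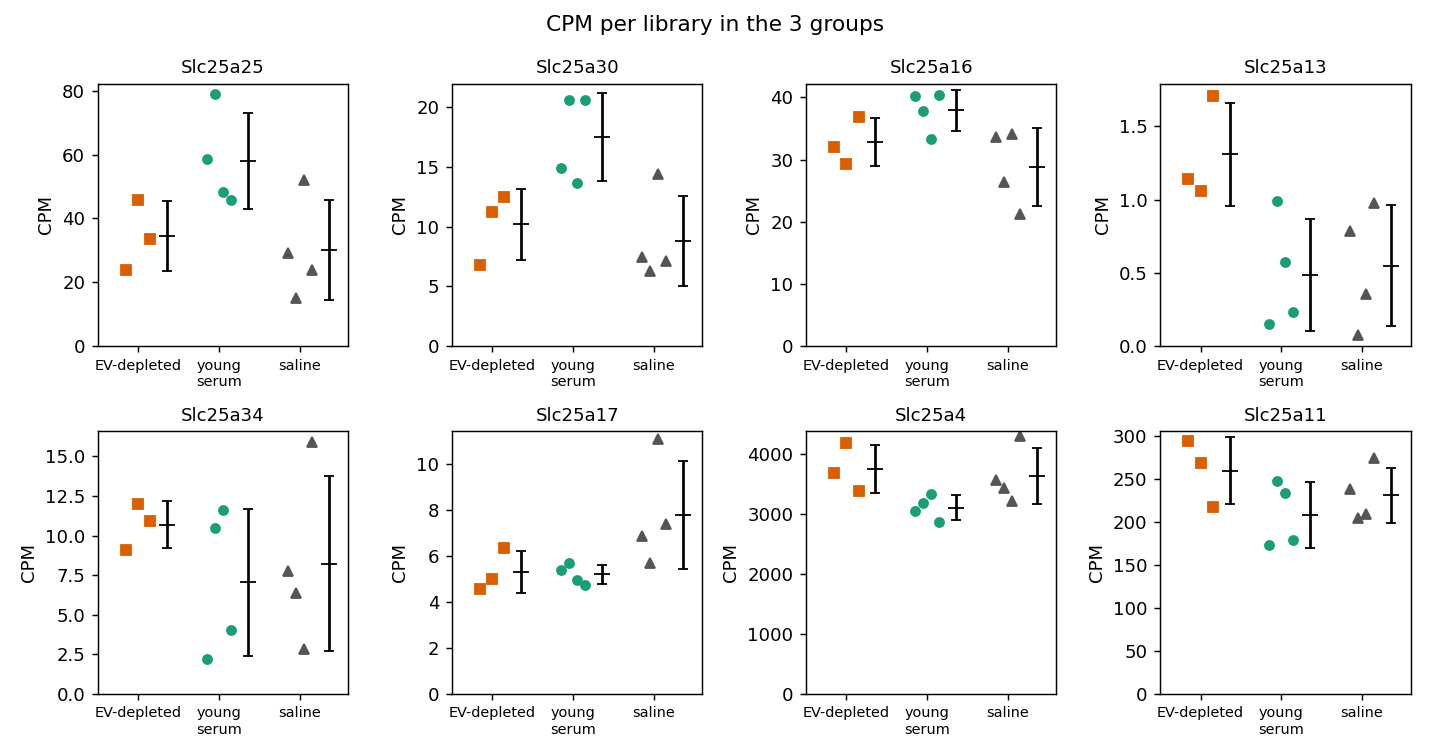
CPM in each library for 8 carriers (squares EV-depleted young serum, circles young serum, triangles saline), with the group mean and SD as a bar beside the points; each vertical axis starts at 0. Slc25a25 and Slc25a30 are high in young serum with 1 saline library (saline 4) in the same range, and Slc25a13 is above 1 CPM in the 3 EV-depleted libraries only.

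The lowest values in this comparison belonged mostly to carriers that were high in saline 4. Slc25a1, the citrate carrier that supplies acetyl units for fatty acid synthesis, had 6.55, 4.98, 4.38 and 3.32 CPM in young serum libraries, against 5.08, 6.04, 101 and 6.16 CPM in saline libraries. Its log2 difference of -1.23 ± 0.73 (SE; limma adjusted p = 0.325) was -0.24 without saline 4. Slc25a10, the dicarboxylate carrier, had 5.34, 6.70, 7.22 and 3.37 CPM in young serum libraries, against 5.12, 5.35, 87.6 and 9.75 CPM in saline libraries. Its log2 difference of -1.10 ± 0.68 (SE; limma adjusted p = 0.34) was -0.21 without saline 4 and 0.05 without saline 4 and 6, so its direction turned. The glutamate carrier Slc25a22 had 8.78, 12.4, 15 and 8.64 CPM in young serum libraries, against 9.65, 13.2, 31.8 and 15.3 CPM in saline libraries, and differed by -0.50 ± 0.30 (SE; limma adjusted p = 0.324), which was -0.18 without saline 4 and -0.04 without saline 4 and 6. Slc25a45 differed by -0.47 ± 0.25 (SE; limma adjusted p = 0.284), with 4.23 CPM in saline 4 against 1.22 to 1.78 CPM in the other saline libraries, and by -0.19 without saline 4. Without saline 4, 21 carriers were higher and 18 lower in young serum, with a median log2 difference of 0.01 against 0.07 over all genes.

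Of the 4 most abundant carriers, Slc25a4, Slc25a3 and Slc25a11 had lower means in young serum than in saline and Slc25a12 a higher one, none past the test. Slc25a4 differed by -0.22 ± 0.12 (SE; limma adjusted p = 0.29) and Slc25a3 by -0.20 ± 0.14 (SE; limma adjusted p = 0.385), which were -0.13 and -0.11 without saline 6. In the malate-aspartate shuttle, Slc25a11 differed by -0.16 ± 0.15 and Slc25a12 by 0.10 ± 0.11 (SE), which were -0.08 and 0.05 without saline 6; Slc25a12 was at -0.01 without saline 4 and 6. The carnitine-acylcarnitine carrier Slc25a20 differed by -0.26 ± 0.20 (SE), with 55.6, 70.4, 76.0 and 53.8 CPM in young serum libraries, against 63.8, 65.7, 66.0 and 121 CPM in saline libraries. Saline 6, the library with the high slow fibre sum, is the 121 CPM, and without it the difference was -0.04. The mitoferrin Slc25a37, the iron importer, had 26.4, 28.8, 23.4 and 31.0 CPM in young serum libraries, against 31.5, 28.3, 24.7 and 17.1 CPM in saline libraries, and differed by 0.13 ± 0.19 (SE); its direction turned to -0.04 without saline 6 and -0.13 without saline 4 and 6. Slc25a5 had 26.0, 29.1, 27.5 and 20.3 CPM in young serum libraries, against 20.8, 27.4, 67.5 and 29.7 CPM in saline libraries, and differed by -0.35 ± 0.28 (SE). Saline 4 is the 67.5 CPM; without it Slc25a5 was at -0.01, and without saline 4 and 6 its direction turned to 0.09. Both Slc25a37 and Slc25a5 overlap between the groups.

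By role, 3 of 7 adenine nucleotide carriers tested were higher in young serum than in saline and 4 lower. Of the cofactor and pyrimidine nucleotide carriers 5 of 7 were higher, of the iron and glutathione carriers 3 of 4, and of the amino acid and acylcarnitine carriers 1 of 5. Of the uncoupling-like carriers 2 of 3 were higher, and of the malate-aspartate shuttle and glutamate carriers 1 of 4. Of the citrate and dicarboxylate carriers 0 of 2 were higher, and of the carriers without a role used here 0 of 5. The phosphate carrier was lower. The 4 carriers with an unadjusted p under 0.05 were Slc25a25 and Slc25a17 among the adenine nucleotide carriers, Slc25a16 among the cofactor carriers and Slc25a30 among the uncoupling-like ones. Slc25a46, an outer membrane member tied to mitochondrial fission, differed by 0.09 ± 0.12 (SE). Slc25a29 differed by -0.22 and Slc25a47 by -0.15. These genes neighbour each other on chromosome 12 on opposite strands. They lie at 108825873 to 108835883 and 108836046 to 108856815, without overlap. No source used here says whether counting used strand.

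**Figure D3:**
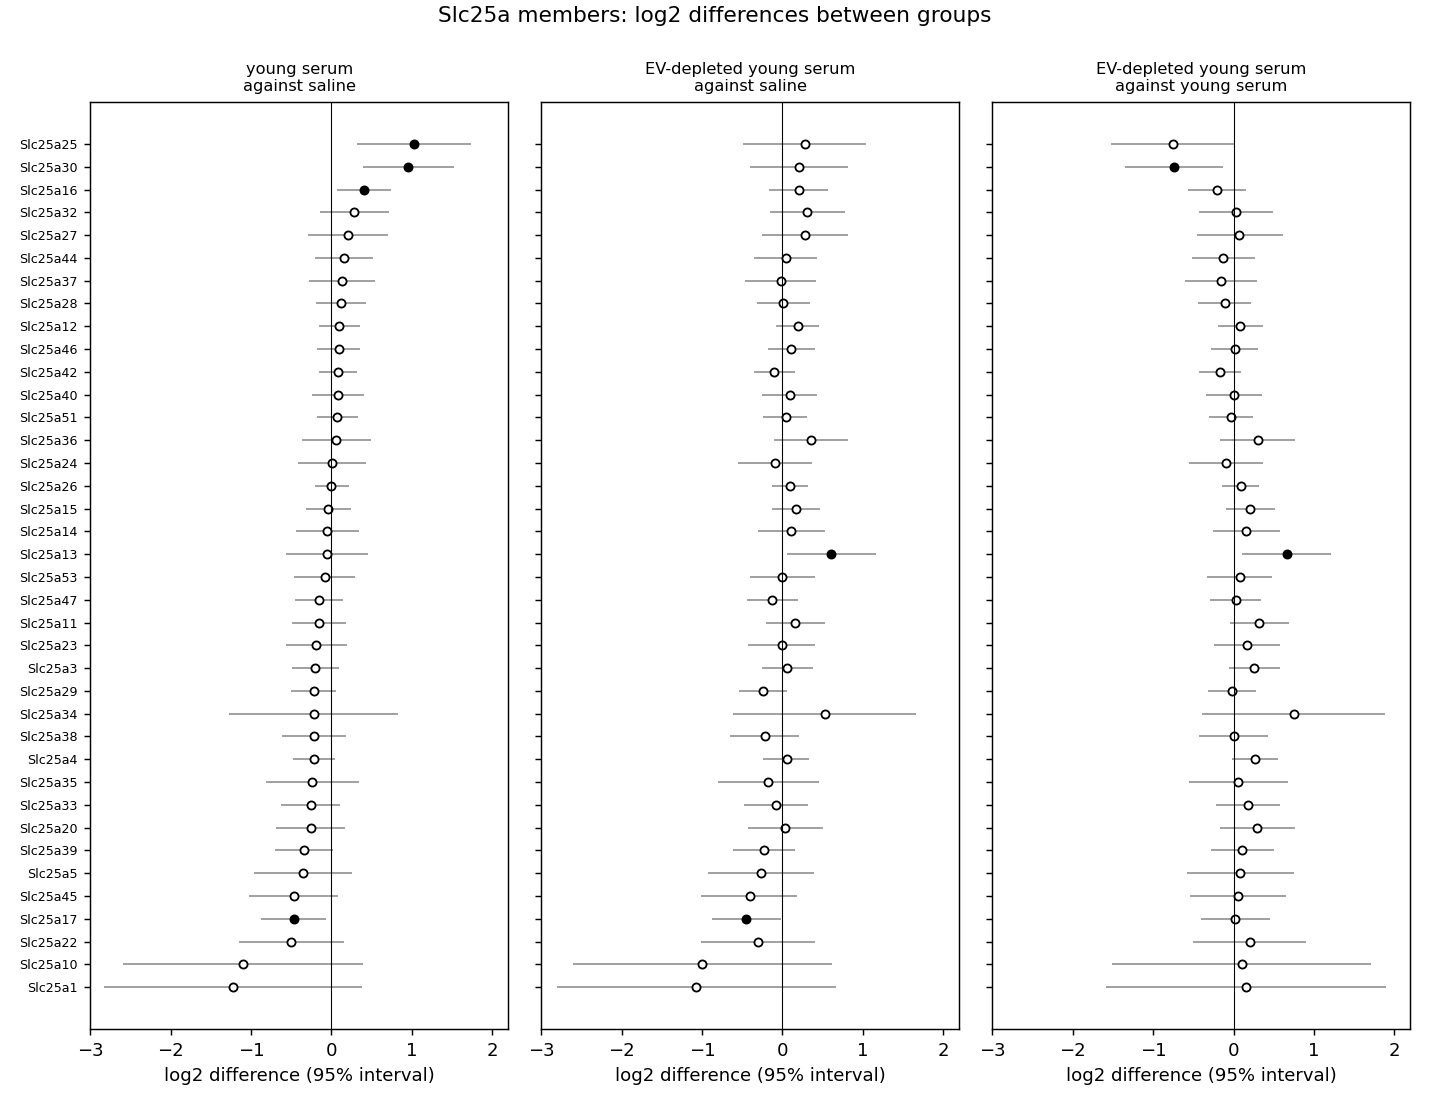
Log2 difference of 38 of the 39 carriers tested, with its 95% interval, in the 3 comparisons; carriers are in the order of young serum against saline, and filled points have an unadjusted p under 0.05. Slc25a25 and Slc25a30 lie near 1 in the left panel and near -0.75 in the right one, while Slc25a1 and Slc25a10 have the widest intervals.

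In EV-depleted young serum against saline, the carriers differed little on balance, with 21 higher and 18 lower and a median log2 difference of 0.03, against -0.00 over all genes. At an unadjusted p under 0.05, 1 carrier was higher (Slc25a13; 2.56% of 39) and 1 lower (Slc25a17), against 6.49% and 5.59% of all genes. Groups did not overlap for 1 carrier in the higher direction (again Slc25a13) and 0 in the lower, against 3.39% and 4.03% of all genes. Slc25a13 counts here through the filter, which had set its direction and its lack of overlap. Without saline 4 and saline 6, 29 carriers were higher and 10 lower, with a median of 0.11 against 0.06 over all genes.

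Slc25a13, the aspartate-glutamate carrier that prevails in liver (chromosome 6, 6041218 to 6217173), had 1.14, 1.06 and 1.71 CPM in EV-depleted libraries, 0.153, 0.989, 0.573 and 0.230 CPM in young serum libraries and 0.787, 0.0734, 0.355 and 0.980 CPM in saline libraries. All EV-depleted values lie above all others, the nearest being 0.989 CPM in young serum 2, but the filter had set this order. These levels rest on few reads, about 40.8 to 65.8 in EV-depleted, 6.0 to 36 in young serum and 3.0 to 38.9 in saline libraries. The log2 difference was 0.60 ± 0.25 (SE; limma adjusted p = 0.404) against saline and 0.66 ± 0.25 (SE; limma adjusted p = 1.0) against young serum. The ratios of mean CPM were 2.38 and 2.68, larger than on the CPM + 1 scale. Slc25a12, its close relative and by far the more abundant in this muscle, had 498, 416 and 429.9 CPM in EV-depleted, 385, 472, 419 and 412 CPM in young serum and 467, 386, 376 and 348 CPM in saline libraries, and differed by 0.19 ± 0.12 (SE; limma adjusted p = 0.488) against saline, or 0.07 without saline 4 and 6.

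Slc25a17 was lower in EV-depleted than in saline libraries, with 4.57, 5.01 and 6.35 CPM in EV-depleted libraries beside the saline values given above. The log2 difference was -0.45 ± 0.20 (SE; limma adjusted p = 0.411), and -0.28 without saline 4, with an unadjusted p no longer under 0.05. Slc25a36, a pyrimidine nucleotide carrier, had 37.1, 27.4 and 47.6 CPM in EV-depleted libraries, against 30.0, 29.1, 36.9 and 19.7 CPM in saline libraries. Its groups overlap, and the log2 difference was 0.36 ± 0.21 (SE; limma adjusted p = 0.456), or 0.19 without saline 6 and 0.48 without saline 4. Slc25a32 had 11.3, 11.1 and 18.3 CPM in EV-depleted libraries and differed by 0.31 ± 0.21 (SE, limma adjusted p = 0.495), or 0.18 without saline 6. For both Slc25a36 and Slc25a32, EV-depleted 4 held the highest value of all libraries. Over the alternative analyses Slc25a36 ran from 0.17 to 0.56 and Slc25a32 from 0.09 to 0.43. Slc25a1 and Slc25a10 differed by -1.07 ± 0.79 and -1.0 ± 0.74 (SE), which were -0.09 and -0.11 without saline 4; without saline 4 and 6 Slc25a10 turned to 0.15. Slc25a45 had 1.07, 0.960 and 1.63 CPM in EV-depleted libraries and differed by -0.41 ± 0.27 (SE; limma adjusted p = 0.489), or -0.13 without saline 4. Slc25a4 and Slc25a3 stood close to saline, at 0.05 ± 0.13 and 0.06 ± 0.15 (SE), or 0.13 and 0.15 without saline 6; Slc25a4 was at -0.01 without saline 4.

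In EV-depleted against young serum, 28 carriers were higher (71.8%, against 51.3% of all genes) and 11 lower, with a median log2 difference of 0.08 against 0.00 over all genes. The counts were 22 and 16 without EV-depleted 4 (median 0.05, all genes -0.06) and 24 and 15 without young serum 4 (0.02, all genes -0.01). Without EV-depleted 3 they were 29 and 9 (0.08, all genes 0.07). At an unadjusted p under 0.05, 1 was higher (Slc25a13; 2.56%) and 1 lower (Slc25a30; 2.56%), against 1.75% and 0.478% of all genes. Groups did not overlap for 5 carriers in the higher direction (Slc25a13, Slc25a4, Slc25a15 and Slc25a23 among them) and for 1 in the lower (Slc25a30), against 4.16% and 1.96% of all genes. These 5 are 12.8% of the 39 tested. Slc25a13 stands in both of the higher counts through the filter, which had set its direction and its lack of overlap. This comparison shares its EV-depleted and young serum libraries with the comparisons against saline, so the values of a carrier in the 3 comparisons are not independent.

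Slc25a25 and Slc25a30 were the lowest of the 39. For Slc25a25 the log2 difference was -0.75 ± 0.35 (SE; 95% interval -1.52 to 0.02; limma adjusted p = 1.0), with 45.9 CPM in EV-depleted 3 just above the lowest young serum library at 45.8 CPM. Slc25a30 had 6.80, 11.2 and 12.5 CPM in EV-depleted libraries, all below the young serum minimum of 13.7 CPM. Its log2 difference was -0.74 ± 0.28 (SE; 95% interval -1.35 to -0.13; limma adjusted p = 1.0). Slc25a16, with 32.1, 29.3 and 36.9 CPM in EV-depleted libraries, followed at -0.21 ± 0.17 (SE). Slc25a42, the coenzyme A carrier, had 43.1, 33.7 and 39.7 CPM in EV-depleted libraries, against 41.6, 47.1, 44.5 and 41.8 CPM in young serum libraries, and differed by -0.17 ± 0.12 (SE). Their groups overlap.

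Several abundant carriers of energy metabolism had higher means in EV-depleted than in young serum libraries, none past the test. Slc25a4 was higher in all 3 EV-depleted libraries than in any young serum library, by 0.27 ± 0.13 (SE; 95% interval -0.02 to 0.55; limma adjusted p = 1.0); the nearest values are 3384 CPM in EV-depleted 4 and 3339.8 CPM in young serum 3. Slc25a3 had 814, 869 and 675 CPM in EV-depleted libraries, against 545, 727, 738 and 625 CPM in young serum libraries, a log2 difference of 0.26 ± 0.15 (SE; limma adjusted p = 1.0). Slc25a11 had 294, 269 and 217 CPM in EV-depleted libraries, against 173, 248, 234 and 179 CPM in young serum libraries, a log2 difference of 0.32 ± 0.17 (SE; 95% interval -0.04 to 0.69; limma adjusted p = 1.0). Slc25a20 had 74.4, 81.6 and 77.4 CPM in EV-depleted libraries and differed by 0.29 ± 0.21 (SE; limma adjusted p = 1.0). In the last 3 the groups overlap. All 4 tested carriers of the malate-aspartate shuttle and glutamate had higher means, where Slc25a13 had to be higher because of the filter.

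Slc25a34, whose transported molecule is not used here, had the largest positive difference and one of the widest. It stood at 9.09, 12.0 and 10.9 CPM in EV-depleted, 2.17, 10.5, 11.6 and 4.04 CPM in young serum and 7.77, 6.38, 2.84 and 15.9 CPM in saline libraries. The log2 difference was 0.75 ± 0.52 against young serum (SE; limma adjusted p = 1.0) and 0.53 ± 0.52 against saline (SE; limma adjusted p = 0.626), where it was 0.17 without saline 4 and 0.88 without saline 6. Myh7, the slow myosin heavy chain, stood at 340, 563 and 512 CPM in EV-depleted, 111, 192, 523 and 22.0 CPM in young serum and 48.8, 43.2, 67.8 and 944 CPM in saline libraries. The sum of the 9 slow fibre markers was 1422 to 2234 CPM in EV-depleted, 242 to 1656 CPM in young serum and 256 to 5551 CPM in saline libraries. The part of fibre type in the differences of Slc25a34, Slc25a4, Slc25a3, Slc25a11 and Slc25a20 was not tested.

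The carriers varied most among the saline libraries, with a median SD of log2 values of 0.19 in EV-depleted, 0.13 in young serum and 0.35 in saline libraries, against 0.22, 0.15 and 0.30 over all genes. Saline 4 held the highest value of 15 of 39 carriers (38.5%, against 33.8% of all genes), and 9 carriers exceeded 2 times the mean of saline 2 and 3 there. Slc25a5, for example, had 67.5 CPM in saline 4 against 20.3 to 29.7 CPM in the other 10 libraries. Saline 6 held the highest value of 7 carriers (17.9%, against 14.5% of all genes), among them Slc25a4, Slc25a3 and Slc25a20. It held the lowest value of 10 (25.6%, against 32.5% of all genes). The part of adipocytes and of slow fibres in these values was not tested. In 21 of the 39 carriers the highest library was less than 2 times the lowest, and the SAM carrier Slc25a26 varied least, by 1.24 times.

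**Figure D4:**
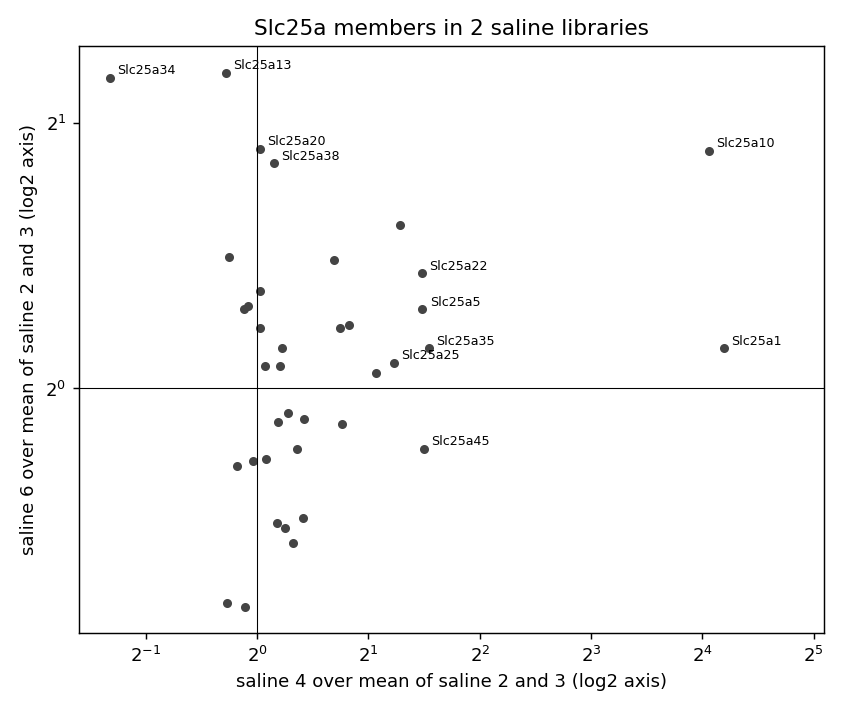
Each point is 1 of 38 of the 39 carriers tested, placed by its CPM in saline 4 (horizontal) and in saline 6 (vertical) over the mean of saline 2 and 3, on log2 axes; lines mark a ratio of 1, and the shared denominator ties the axes together. Slc25a1 and Slc25a10 lie far to the right, and Slc25a13 and Slc25a34 exceed 2 times in saline 6 only.

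Other mitochondrial transport and import genes, from lists that hold no Slc25a symbol, were read beside the carriers; 38 of 39 listed genes are in the table, Ucp1 is not analysed here, and 37 were tested. In young serum against saline, 9 were higher and 28 lower (75.7%, against 52.5% of all genes), and 0 and 6 had an unadjusted p under 0.05 (0.0% and 16.2%, against 10.5% and 11.4% of all genes). Those 6 were Timm22 (-0.36 ± 0.11) and Timm10 (-0.65 ± 0.30), which bring carriers into the inner membrane, Agk (-0.38 ± 0.15) of the same complex, the channel Vdac3 (-0.32 ± 0.10), the uniporter subunit Smdt1 (-0.50 ± 0.19) and Ucp2 (-1.13 ± 0.42; SE throughout). Ucp2, an uncoupling protein prominent in immune and fat cells, had 11, 8.88, 11.7 and 6.31 CPM in young serum libraries, against 12.1, 12.8, 62.1 and 21.1 CPM in saline libraries. Saline 4 is the 62.1 CPM. Without saline 6, 8 were higher and 29 lower. There, 0 and 6 had an unadjusted p under 0.05 (0.0% and 16.2%, against 5.88% and 8.57% of all genes), and Sfxn3 took the place of Timm10. The 0 and 6 became 0 and 3 without young serum 4 (0.0% and 8.11%, against 6.95% and 5.41% of all genes). Without saline 2 they were 1 and 12 (2.7% and 32.4%, against 13.7% and 17.0%). Without saline 4 and 6 they were 0 and 4 (0.0% and 10.8%, against 6.33% and 3.44%). Median-of-ratios scaling gave 0 and 3 (0.0% and 8.11%, against 13.8% and 11.7%). Library weights gave 3 and 10 (8.11% and 27.0%, against 25.3% and 16.4%). Macrophage markers (8 of 8 in the table, none at 0) summed to 68.3 to 114 CPM in EV-depleted, 48.1 to 144 CPM in young serum and 119 to 318 CPM in saline libraries, highest in saline 4, and their part in the values of Ucp2 was not tested.

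In EV-depleted serum against saline, 12 of the 37 were higher and 25 lower, with 3 and 1 at an unadjusted p under 0.05 (8.11% and 2.7%, against 6.49% and 5.59% of all genes): Cpt1b (0.34 ± 0.15), the entry enzyme of the carnitine shuttle, Mcu (0.34 ± 0.12) and Micu2 (0.37 ± 0.14) of the calcium uniporter, and Ucp2 (-1.17 ± 0.46; SE). Without saline 6, 18 were higher and 19 lower. The 3 and 1 became 1 and 2 without EV-depleted 2 (2.7% and 5.41%, against 4.29% and 3.19% of all genes). Without EV-depleted 3 they were 2 and 2 (5.41% each, against 11.2% and 5.33%). Without EV-depleted 4 they were 2 and 0 (5.41% and 0.0%, against 2.38% and 3.4%). Leaving out saline 2 gave 3 and 4 (8.11% and 10.8%, against 10.7% and 11.4%). Leaving out saline 6 gave 4 and 2 (10.8% and 5.41%, against 4.35% and 4.59%). Library weights gave 10 and 6 (27.0% and 16.2%, against 21.1% and 12.9%). In EV-depleted against young serum, 25 were higher and 12 lower, with 4 and 0 at an unadjusted p under 0.05 (10.8% and 0.0%, against 1.75% and 0.478% of all genes). The 4 and 0 became 0 and 0 without EV-depleted 2 (all genes 0.791% and 0.449%). Without young serum 4 they were 1 and 0 (2.7% and 0.0%, against 0.601% and 0.449%). Without young serum 3 they were 8 and 0 (21.6% and 0.0%, against 2.04% and 0.616%). Leaving out saline 6 gave 7 and 1 (18.9% and 2.7%, against 2.94% and 1.07%). Library weights gave 13 and 2 (35.1% and 5.41%, against 7.56% and 6.0%). Ckmt2, the mitochondrial creatine kinase that uses ATP exported by Slc25a4, differed by 0.76 ± 0.27 (SE; limma adjusted p = 1.0), with 1332, 1157 and 1037 CPM in EV-depleted libraries, against 498, 934, 868 and 565 CPM in young serum libraries. Mdh1, the cytosolic malate dehydrogenase of the shuttle, differed by 0.48 ± 0.20, Timm22 by 0.30 ± 0.12 and Micu2 by 0.33 ± 0.14 (SE). None of the 37 passed the adjusted threshold, and all 37 share the libraries of the carriers.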

How the data were processed

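RNA-seq values of 11 libraries were used. The authors deposited CPM, scaled to 1000000 per library over the genes in the table plus an offset of 0.0001, as read from the values. FastQC, STAR, DESeq2 and build mm10 appear in the submitters' processing notes without roles, versions or order, and no source used here names the counting tool. The authors also deposited TPM, which divides by genomic span and was used only for gene positions; these matched GENCODE M21 for 41 of 42 carriers. Of the CPM values between 0.01 and 1, 75.6% to 79.0% were whole reads within 0.1, too few for a count model.

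Here, genes reaching 1 CPM in 3 or more libraries were kept (13187 of 18269) and log2(CPM + 1) was fitted by limma 3.58.1 in R 4.3.3 over the 3 groups with eBayes and a trend. Tests are two-sided, adjusted by Benjamini-Hochberg over all genes tested, with a threshold of 0.05. The pseudocount of 1 understates differences of low genes. The pipeline was tested on simulated data. Per comparison the 4 highest and 4 lowest carriers are named, besides a fixed set of 10. Other carriers were chosen to show range, roles or outlying libraries after their values were seen. The members and lists were chosen with earlier results of these data known. 1 carrier counted among the 42 is not reported here on its own, in the text or the figures. Alternatives covered pseudocount, filters, scaling, weights, groups fitted, a replicate block and left-out libraries. Figures used matplotlib 3.10.9 in Python 3.11.15.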

Additional observations from a re-analysis of the deposited data

Results flagged for a closer look

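Of 76 sets of 4 libraries (38 carriers in young serum and in saline; the 3 EV-depleted libraries are too few), 4 had 1 library far from its group by Dixon's criterion, which chance alone meets in about 1 of 20. All 4 are in saline. The criterion was applied to log2(CPM + 1), while the values below are in CPM. Saline 4 had 101 CPM of the citrate carrier Slc25a1, against 5.08 to 6.16 CPM in the other saline libraries. It had 14.4 CPM of Slc25a35, against 4.87 to 5.47 CPM. Saline 6 had 121 CPM of the carnitine-acylcarnitine carrier Slc25a20, against 63.8 to 66.0 CPM, and 901 CPM of the phosphate carrier Slc25a3, against 695 to 714 CPM.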

How the results depend on the processing

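Over 19 alternatives, 0 carriers were called in each comparison except with library weights, which gave 3 in young serum against saline, 1 in EV-depleted serum against saline and 1 in EV-depleted against young serum; the cause was not tested. The 3 were Slc25a25 (log2 difference 1.64, adjusted p = 0.0054), Slc25a30 (1.25, adjusted p = 0.0054) and Slc25a16 (0.45, adjusted p = 0.0113), and over all alternatives their adjusted p reached 0.465, 0.415 and 0.495. The single ones were Slc25a13 (0.85, adjusted p = 0.0309, up to 0.679), whose direction the filter on low values had set, and Slc25a30 (-1.10, adjusted p = 0.0455, up to 1.0).

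In young serum against saline, 4 carriers had an unadjusted p under 0.05 (10.3%, against 21.9% of all genes), 7 with median-of-ratios scaling (17.9%, against 25.5%) and 2 to 7 when 1 library was left out (2 without young serum 4, 7 without saline 2, or 5.13% and 17.9% against 12.4% and 30.7%). In EV-depleted serum against saline there were 2 (5.13%, against 12.1%). Library weights gave 8, of which 6 were higher and 2 lower (20.5% in both directions together). That pooled share was smaller than the pooled share of all genes, where 21.1% were higher and 12.9% lower. There was 1 with a pseudocount of 0.1, a filter at 5 CPM, only the 2 groups fitted, or saline 4 and 6 left out. Without 1 library there were 1 to 3, where only leaving out saline 2 did not give 1. Wherever the count was 1, it was 2.56% to 3.03% against 5.78% to 16.5% of all genes. In EV-depleted against young serum there were 2 (5.13%, against 2.23%). There were 9 with weights (23.1%, against 13.6%), 1 at 5 CPM (3.03%, against 2.34%) and 4 with only the 2 groups fitted (10.3%, against 4.81%). Without saline 4 and 6 there were 5 (12.8%, against 5.13%), and without 1 library 0 to 4. The 0 came without EV-depleted 2 (0.0%, against 1.24%). Leaving out young serum 1 or 4 gave 1 (2.56%, against 1.41% and 1.05%). Leaving out EV-depleted 4 or saline 6 gave 4 (10.5% and 10.3%, against 2.96% and 4.01%). Slc25a13 was not tested without any 1 of the EV-depleted libraries or at 5 CPM, since it then failed the filter.

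Of 39 carriers, 17 kept their direction in young serum against saline in all alternatives that tested them, 19 in EV-depleted serum against saline and 26 in EV-depleted against young serum. In young serum against saline, those that turned include Slc25a5 (-0.56 to 0.09), Slc25a37 (-0.13 to 0.24) and Slc25a34 (-0.58 to 0.52). Slc25a10 turned to 0.05 in young serum against saline without saline 4 and 6, and in EV-depleted serum against saline to 0.02 with weights and 0.15 without saline 4 and 6. Slc25a25 ranged from 0.76 to 1.64 and Slc25a30 from 0.83 to 1.25 in young serum against saline, with an unadjusted p under 0.05 in 18 and 19 of 19 alternatives. Deviations of same-numbered libraries had correlations of -0.28 to 0.30 over 9 pairs, 4 of them over 0.1. Libraries with different numbers ran from -0.50 to 0.54, so these correlations cannot decide whether the numbers pair libraries. With the replicate number as a block, 4, 3 and 3 carriers had an unadjusted p under 0.05, the medians were -0.04, 0.02 and 0.09, and 0 were called. Carriers near 1 CPM rest on few reads, such as 3.0 to 65.8 for Slc25a13, which limits what depth can show.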
